A study of Sus scrofa with 90 samples.

Results

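Features listed under MYH7, ATP2A2 and NPPA were followed in pig muscle injured by an injected solvent. MYH7 and ATP2A2 are typical of slow muscle fibres and of heart muscle, and NPPA is typical of heart muscle. Members were all features that carry 1 of these 3 symbols alone and have a value in every column of the deposited table. Of the 7 features listed under the symbols, 6 met this rule, out of 1908 tested and 4608 listed features. They are 4 features of MYH7 (numbers 4610, 4799, 5503 and 6486 of the array's list), 1 of ATP2A2 (number 5418) and 1 of NPPA (number 7158). The remaining MYH7 feature, number 6104, had no value in any column.

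The study asked how gene expression in muscle changes as a lesion ages. In 10 pigs, named C to L in the labels, propylene glycol was injected into the Longissimus dorsi, the long muscle of the back, at several times, which left lesions aged 6 h, 2 d, 7 d and 21 d. Muscle of the same animal that had received no injection was the control. The files held 10 lesions of 6 h, 10 of 2 d, 9 of 7 d (none of pig J), 9 of 21 d (none of pig L) and 10 controls, each from a separate animal within its group. No source used here gives breed or age.

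MYH7 encodes the myosin heavy chain of slow fibres, the motor protein that also drives contraction in the ventricle of the heart. ATP2A2 encodes SERCA2, the pump that returns calcium to the sarcoplasmic reticulum in slow fibres and in heart muscle and so ends a contraction. NPPA encodes the precursor of atrial natriuretic peptide, a hormone that is made mainly in the atria of the heart and acts on the kidney and blood vessels. The Longissimus dorsi of the pig is mostly fast muscle, in which slow fibres are a minority.

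RNA was labelled with radioactive phosphorus and hybridised to nylon arrays of complementary DNA. Values are logarithms, and no source used here names their base, so differences are stated in log units and not as folds. Arrays were quantile-normalized, which gives every array the same distribution, and differences are lesion minus control within the pig, with the standard error (SE) of the limma fit. The term called marks an adjusted p below 0.05 over all 1908 features. The muscle was measured whole, so fewer fibres of a type and less RNA per fibre cannot be told apart.

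Some facts of the arrays bear on every value. The 6 h array of pig F had its values out of step with the feature list and was left out, which left 47 arrays. Over these arrays the median correlation between features sharing a symbol was 0.02 (347 pairs), against -0.01 over all pairs of features. Whether each symbol belongs to its feature was therefore not settled, and a gene's name below means no more than the annotation of a feature. The spread of values within an array also differed between groups: its SD averaged 0.744 ± 0.0926 in the 9 arrays of 6 h lesions, 0.805 ± 0.0985 in the 10 of 2 d, 0.607 ± 0.158 in the 9 of 7 d, 0.643 ± 0.196 in the 9 of 21 d and 0.976 ± 0.237 in the 10 controls (mean ± SD).

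Among the features of the 3 genes, one MYH7 feature (5503) and the NPPA feature were higher in lesions of 6 h, 7 d and 21 d than in control muscle. Another MYH7 feature (4799) was lower at the same ages. These are normalized values, and on deposited values the difference of feature 5503 turned negative at 7 d and 21 d. With array SD in the model NPPA was called at no age, and features 5503 and 4799 at 7 d alone. The ATP2A2 feature and the other MYH7 features were not called at any age. Of the 6 features, 3 were called at 6 h (2 up and 1 down), where 11.8% of all tested features were called, 6.92% higher and 4.87% lower. The same 3 features were called at 7 d, against 25.4% of all features (10.7% higher, 14.6% lower). They were called again at 21 d, against 14.7% of all features (6.50% higher, 8.23% lower). At 2 d none of the 6 was called by limma, while 3 had an unadjusted p below 0.05, and 0.734% of all features were called (14, with 170 at an unadjusted p below 0.05). The 4 comparisons use the same control arrays. When the ages were tested together by limma's F test, the same 3 features were called, with adjusted p = 0.00115 for MYH7 feature 5503, 0.00241 for MYH7 feature 4799 and 0.0188 for NPPA, beside 22.6% of all features. ATP2A2 had an adjusted p of 0.156 in that test, MYH7 feature 6486 of 0.58 and MYH7 feature 4610 of 0.774.

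**Figure D1:**
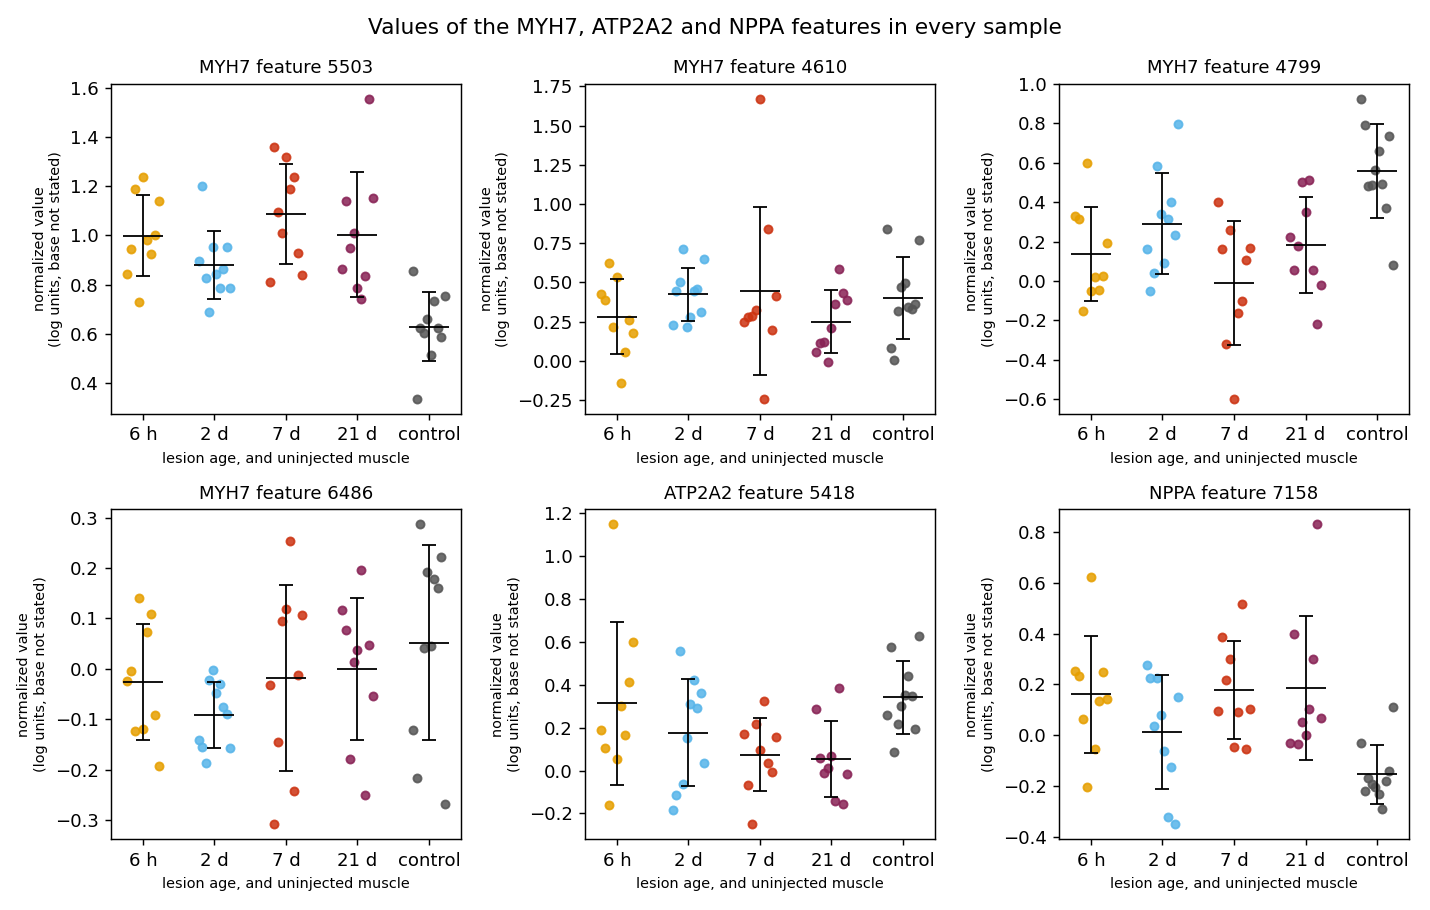
Quantile-normalized value (vertical axis, log units of unstated base) of the 6 features in each sample, by lesion age with control muscle at the right; points are pigs, the long bar is the mean and the error bar the SD (n = 9, 10, 9, 9 and 10). For MYH7 feature 5503 the lesion means lie between 0.880 and 1.09, above the control mean of 0.629, a rise that holds on this scale and vanishes or turns in the table values at 7 d and 21 d.

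MYH7 feature 5503 had the highest mean level of the 6 features and ranked 331 of the 1908. At 6 h its lowest, median and highest normalized values were 0.728, 0.982 and 1.24. At 2 d they were 0.687, 0.853 and 1.20, and at 7 d 0.809, 1.09 and 1.36. At 21 d they were 0.740, 0.948 and 1.56, against 0.336, 0.623 and 0.854 in control muscle. The ranges overlapped with control at every age, yet 7 of 9 lesions of 6 h, 5 of 10 of 2 d, 7 of 9 of 7 d and 6 of 9 of 21 d lay above the highest control. Ranges that do not overlap at all, which this feature did not show, were found for 2.46% of all features at 6 h, 0.262% after 2 d, 4.66% at 7 d and 1.42% at 21 d. For lesions beyond the most extreme control, here and for the members below, no share over all features was computed.

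The fitted difference of MYH7 feature 5503 was 0.36 at 6 h (SE 0.092, adjusted p = 0.00692), higher in 8 of 9 pigs. It was 0.47 at 7 d (SE 0.092, adjusted p = 0.000163), higher in 8 of 9 pigs. At 21 d it was 0.37 (SE 0.092, adjusted p = 0.00491), higher in 9 of 9 pigs. The 2 d lesions stood above their own control in 10 of 10 pigs by a fitted 0.25 (SE 0.089), which did not pass the test (adjusted p = 0.272). The pig without a rise at 6 h and 7 d was pig C, at 0.843 and 0.809 in these lesions and at 0.854, the highest control, in its uninjected muscle. The largest differences within a pig were 1.02 at 7 d and 0.86 at 2 d, both in pig D, whose control was the lowest at 0.336, and 0.93 at 21 d in pig J. All 10 fits that left out 1 pig kept the calls at 6 h, 7 d and 21 d.

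The rise of MYH7 feature 5503 depended on the scale. As the median of its group, it stood at the 83.1 percentile of the tested features of its array at 6 h, 80.7 after 2 d, 85.1 at 7 d and 82.5 at 21 d, against 75.4 in controls. In the values as deposited its means were 0.991 ± 0.195 at 6 h (n = 9), 0.900 ± 0.284 after 2 d (n = 10), 0.795 ± 0.203 at 7 d (n = 9), 0.777 ± 0.374 at 21 d (n = 9) and 0.831 ± 0.349 in controls (n = 10). On that scale the fitted difference was 0.15 at 6 h (adjusted p = 0.418), -0.0065 at 7 d (adjusted p = 0.973) and -0.071 at 21 d (adjusted p = 0.684), none of them called. The feature thus held a higher place among the features of a lesion array, while its deposited value was not shown to be higher.

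MYH7 feature 4799 moved the other way. At 6 h its lowest, median and highest values were -0.151, 0.0248 and 0.60. They were -0.0535, 0.273 and 0.798 at 2 d and -0.599, 0.106 and 0.402 at 7 d. At 21 d they were -0.217, 0.178 and 0.514, against 0.0833, 0.529 and 0.926 in control muscle. The ranges overlapped at every age, and 5 of 9 lesions of 6 h, 2 of 10 of 2 d, 4 of 9 of 7 d and 4 of 9 of 21 d lay below the lowest control, which was that of pig L.

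The fitted difference of feature 4799 was -0.40 at 6 h (SE 0.116, adjusted p = 0.0185), lower in 7 of 9 pigs. At 7 d it was -0.59 (SE 0.116, adjusted p = 0.000178), lower in 8 of 9 pigs, and at 21 d -0.37 (SE 0.116, adjusted p = 0.027), again lower in 8 of 9. At 2 d it was -0.27 (adjusted p = 0.397), lower in 7 of 10 pigs. Pig L went against the fall at 6 h, 2 d and 7 d, with a control at 0.0833 and lesions at 0.194, 0.798 and 0.168. The fall at 7 d was called in every one of the 23 other settings tried. The call at 6 h ended without pig E (adjusted p = 0.0661), H (0.0535) or K (0.0697), within a range of 0.000122 to 0.0765 over all settings. The call at 21 d ended without pig C, D, I, J or K (adjusted p from 0.0592 to 0.0986), within a range of 0.000364 to 0.206. On the deposited values the fall was larger at each age, at -0.60 at 6 h, -0.48 after 2 d, -0.76 at 7 d and -0.62 at 21 d. The deposited value of feature 4799 correlated with the SD within the array at 0.68, and that SD was highest in controls. On this scale 393 of all features were called lower and 103 higher at 6 h, and 10 and 18 at 2 d. The counts were 495 and 249 at 7 d and 530 and 178 at 21 d.

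The 2 remaining MYH7 features showed no called difference. MYH7 feature 4610 averaged 0.282 ± 0.240 at 6 h (n = 9), 0.425 ± 0.168 after 2 d (n = 10), 0.447 ± 0.536 at 7 d (n = 9), 0.250 ± 0.20 at 21 d (n = 9) and 0.403 ± 0.261 in controls (n = 10). Its differences from control ran from -0.14 to 0.04 (SE 0.146 at 6 h, 7 d and 21 d), with adjusted p from 0.58 to 0.958. The wide spread at 7 d came with the lesion of pig G, at 1.67 beside a range of -0.241 to 0.843 in the other pigs. MYH7 feature 6486 averaged -0.0261 ± 0.115 at 6 h, -0.0910 ± 0.0657 at 2 d, -0.0187 ± 0.185 at 7 d, 0.000452 ± 0.141 at 21 d and 0.0522 ± 0.193 in controls, with the same n. Its differences of -0.14 to -0.06 all had adjusted p above 0.5, and their sign turned at 6 h, 7 d and 21 d once array SD was in the model (0.036, 0.10 and 0.093).

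The 4 MYH7 features thus did not share a pattern. Over the 47 arrays features 4799 and 5503 had a Pearson correlation of -0.76, and of -0.60 after the mean of each group was taken out. Within single groups it was -0.76 at 6 h, -0.62 at 2 d, -0.62 at 7 d, -0.76 at 21 d and -0.22 in controls. The other pairs of MYH7 features ran from -0.24 to 0.16. These correlations share arrays, normalization and, in the pooled value, the groups, and are given as descriptions.

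**Figure D2:**
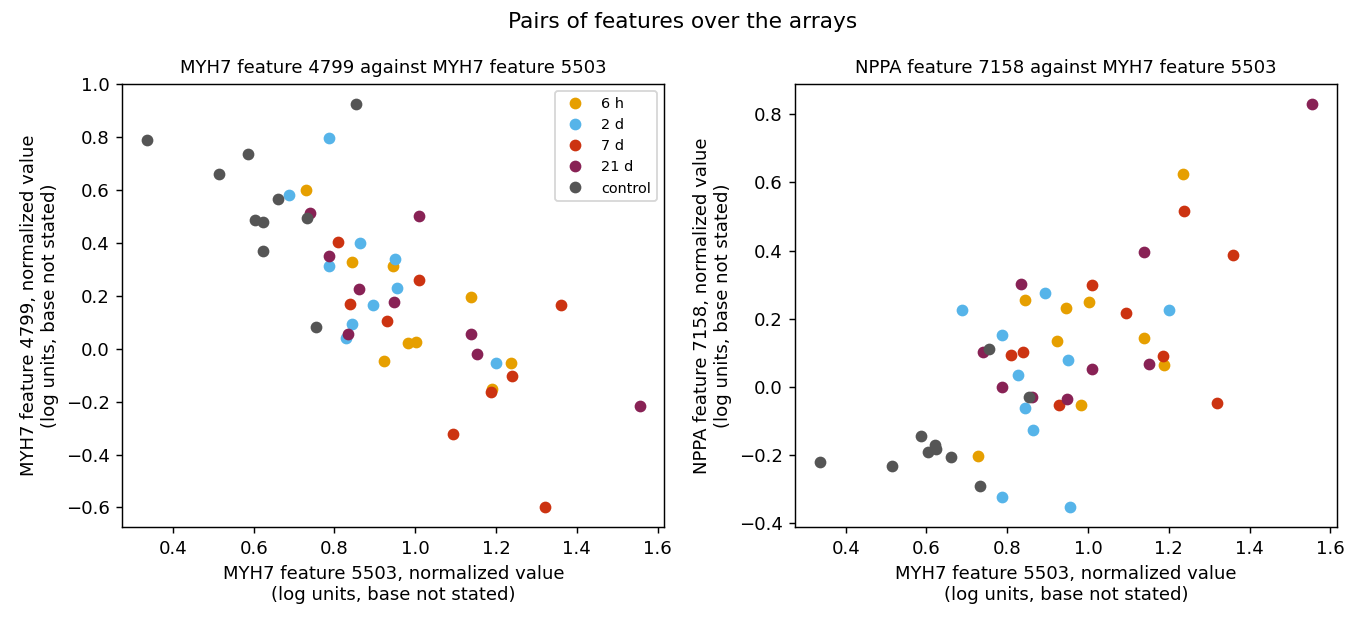
Normalized values (log units of unstated base) of MYH7 feature 4799 (left) and NPPA (right) against MYH7 feature 5503 in the 47 arrays, coloured by group. Feature 4799 falls as 5503 rises (r = -0.76) and NPPA rises with it (r = 0.68), with most controls at the low end of feature 5503.

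For ATP2A2, the calcium pump, the lowest, median and highest values were -0.160, 0.190 and 1.15 at 6 h. They were -0.183, 0.223 and 0.560 at 2 d and -0.251, 0.0958 and 0.324 at 7 d. At 21 d they were -0.158, 0.0133 and 0.383, against 0.0846, 0.326 and 0.630 in control muscle. The 6 h lesion of pig G, at 1.15, was the highest of that age, with pig L next at 0.602. Of the 21 d lesions, 7 of 9 lay below the lowest control.

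The difference of ATP2A2 was -0.035 at 6 h (SE 0.112, adjusted p = 0.912) and -0.16 at 2 d (SE 0.108, adjusted p = 0.659). At 7 d it was -0.27 (SE 0.112, adjusted p = 0.0709), lower in 9 of 9 pigs. At 21 d it was also -0.27 (SE 0.112, adjusted p = 0.0996), lower in 8 of 9 pigs. The difference at 7 d was called in 4 of the 13 settings other than those without 1 pig (adjusted p from 0.0204 to 0.338) and that at 21 d in 4 (0.00938 to 0.366). On the deposited values it was -0.34 at 7 d (adjusted p = 0.0204) and -0.36 at 21 d (adjusted p = 0.0138). On that scale 39.0% of all features were called at 7 d (495 lower, 249 higher) and 37.1% at 21 d (530 lower, 178 higher). The deposited value of ATP2A2 correlated with the SD within the array at 0.56.

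For NPPA, the natriuretic peptide precursor, the lowest, median and highest values were -0.203, 0.144 and 0.624 at 6 h. They were -0.352, 0.0571 and 0.274 at 2 d and -0.0545, 0.104 and 0.516 at 7 d. At 21 d they were -0.0357, 0.0659 and 0.830, against -0.290, -0.187 and 0.111 in control muscle. Of the lesions, 6 of 9 at 6 h, 4 of 10 at 2 d, 4 of 9 at 7 d and 3 of 9 at 21 d lay above the highest control, that of pig L. The group median stood at the 55.6 percentile of the array at 6 h, 49.8 after 2 d, 53.0 at 7 d and 50.5 at 21 d, against 28.7 in controls, so in control muscle the feature lay well below the middle of the array.

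The difference of NPPA was 0.32 at 6 h (SE 0.0998, adjusted p = 0.0299), higher in 9 of 9 pigs. It was 0.35 at 7 d (SE 0.0998, adjusted p = 0.00867) and 0.35 at 21 d (SE 0.0998, adjusted p = 0.0142), higher in 8 of 9 pigs at each. At 2 d it was 0.17 (SE 0.097, adjusted p = 0.602), higher in 8 of 10. Unlike the rise of MYH7 feature 5503, that of NPPA was called on the deposited values too, with 0.39 in 6 h, 0.36 in 7 d and 0.40 in 21 d lesions. On that scale 26.0% of all features were called at 6 h (103 higher, 393 lower) and 39.0% at 7 d (249 and 495). At 21 d 37.1% were (178 and 530). The deposited value of NPPA also moved with the SD within the array (r = -0.54). That SD differed between the groups as well, and the part of array spread in these calls was not tested. The call at 6 h ended without pig D (adjusted p = 0.0604), E (0.0581), H (0.119) or K (0.0683), within a range of 0.00018 to 0.258 over all settings. The call at 21 d ended without pig D (0.0546) or J (0.0679), within a range of 0.00106 to 0.43. Leaving out the 21 d lesion of pig J and the 2 d lesion of pig D, the arrays least like the rest, gave 0.26 at 21 d (adjusted p = 0.0576).

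**Figure D3:**
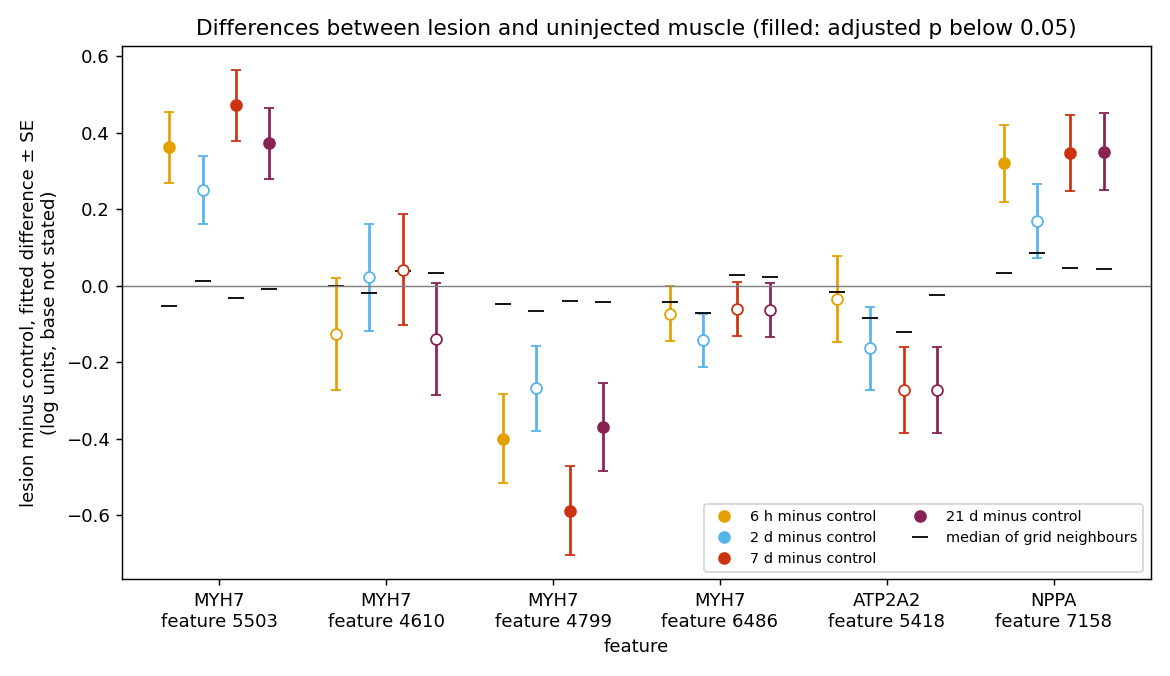
Fitted lesion minus control difference (vertical axis, log units of unstated base, bars are SE) of each feature at the 4 lesion ages, filled where the adjusted p is below 0.05; black dashes are the median difference of the features at nearby places of the repeating grid. Filled points are at 6 h, 7 d and 21 d for MYH7 features 5503 and 4799 and for NPPA, while the dashes stay between -0.12 and 0.085; on the deposited values feature 5503 falls to -0.0065 at 7 d and -0.071 at 21 d.

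Between one lesion age and the next none of the 6 features was called by limma, whereas 6.18% of all features were called for 2 d against 6 h, 16.5% for 7 d against 2 d and 0.681% for 21 d against 7 d. At an unadjusted p below 0.05 the counts were 0, 2 and 0 of 6, beside 341, 524 and 163 of all tested features. MYH7 feature 4799 was lower at 7 d than at 2 d by a fitted difference of -0.32 (SE 0.116, adjusted p = 0.0528) in 7 of 9 pigs. MYH7 feature 5503 differed by 0.22 in that step (SE 0.092, adjusted p = 0.101), higher in 7 of 9 pigs. The levels of 5503 ordered as 7 d, 21 d, 6 h, 2 d and control, and of the neighbours in this order those compared (21 d and 7 d, 2 d and 6 h, 2 d and control) did not differ past the test.

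The place of a feature on the array also moved with the values. Features 24 places apart in the list had a median correlation of 0.44 (1085 pairs) and those 384 places apart 0.43 (910 pairs), the pattern of a grid of 24 columns and 16 rows that repeats 12 times along the list. The sources used here do not describe this layout, and the grid was read from the correlations. MYH7 feature 5503 lies in row 6 and column 7, feature 4799 in row 8 and column 23, ATP2A2 in row 2 and column 18, and NPPA in row 11 and column 6. The median of the other features within 1 row and 1 column, over all repeats, correlated with NPPA at 0.66 (51 features), with ATP2A2 at 0.67 (32), with MYH7 feature 5503 at 0.46 (41) and with feature 4799 at 0.31 (44).

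At 7 d the median lesion difference of these grid neighbours was -0.03 for MYH7 feature 5503 (quartiles -0.28 and 0.08, 11 of 41 called) and -0.04 for feature 4799 (quartiles -0.16 and 0.06, 10 of 44 called). It was 0.05 for NPPA (quartiles -0.11 and 0.20, 12 of 51 called). For ATP2A2 it was -0.12 (quartiles -0.22 and -0.03, 6 of 32 called), and 25 of the 32 were lower, as ATP2A2 was. With the neighbours' median subtracted from each value, an alternative chosen after seeing the data, 8 of the 9 calls against control remained. MYH7 feature 5503 was then at 0.38 at 6 h (SE 0.076, adjusted p = 0.0005), 0.42 at 7 d (adjusted p = 3.79e-05) and 0.34 at 21 d (adjusted p = 0.00129). NPPA was at 0.30 at 6 h (adjusted p = 0.00364), 0.18 at 7 d (against 0.35 before the subtraction, adjusted p = 0.0675, no longer called) and 0.27 at 21 d (adjusted p = 0.00906). ATP2A2 at 7 d was at -0.16 (against -0.27 before the subtraction, adjusted p = 0.12, not called). ATP2A2 at 21 d gained a call, at -0.27 with an SE of 0.076 (adjusted p = 0.00938, within 0.00938 to 0.366 over all settings). The shares of all features called then were 17.8% at 6 h, 0.839% after 2 d, 30.9% at 7 d and 19.7% at 21 d.

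With the grid subtracted, steps between ages were called too. NPPA in 2 d lesions differed from 6 h lesions by -0.26 (adjusted p = 0.0245), beside 8.39% of all features called in that step. MYH7 feature 5503 was higher at 7 d than at 2 d by 0.27 (adjusted p = 0.00847) and feature 4799 lower by a difference of -0.32 (adjusted p = 0.0364), beside 20.3% of all features. The correlation of features 4799 and 5503 was -0.54 after the subtraction, and that of NPPA and feature 5503 was 0.56.

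The spread of the array moved with the rises. Over the 47 arrays the SD within the array correlated at -0.58 with MYH7 feature 5503 and at -0.56 with NPPA, and at 0.39 with feature 4799 and 0.26 with ATP2A2, where the median size of this correlation over all features was 0.286. The control arrays of pigs C and L had SDs of 0.528 and 0.594, below all other controls, and were the highest controls for MYH7 feature 5503 (0.854 and 0.755) and for NPPA (-0.030 and 0.111). With array SD as a term of the model, 2 of the 9 calls remained: MYH7 feature 5503 at 7 d at 0.32 (SE 0.111, adjusted p = 0.0436) and feature 4799 at 7 d at -0.55 (SE 0.148, adjusted p = 0.00928). NPPA fell short at each age, at 0.21 at 6 h, 0.18 at 7 d and 0.19 at 21 d, with adjusted p from 0.258 to 0.43. The part of array spread in these differences was not tested further.

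**Figure D4:**
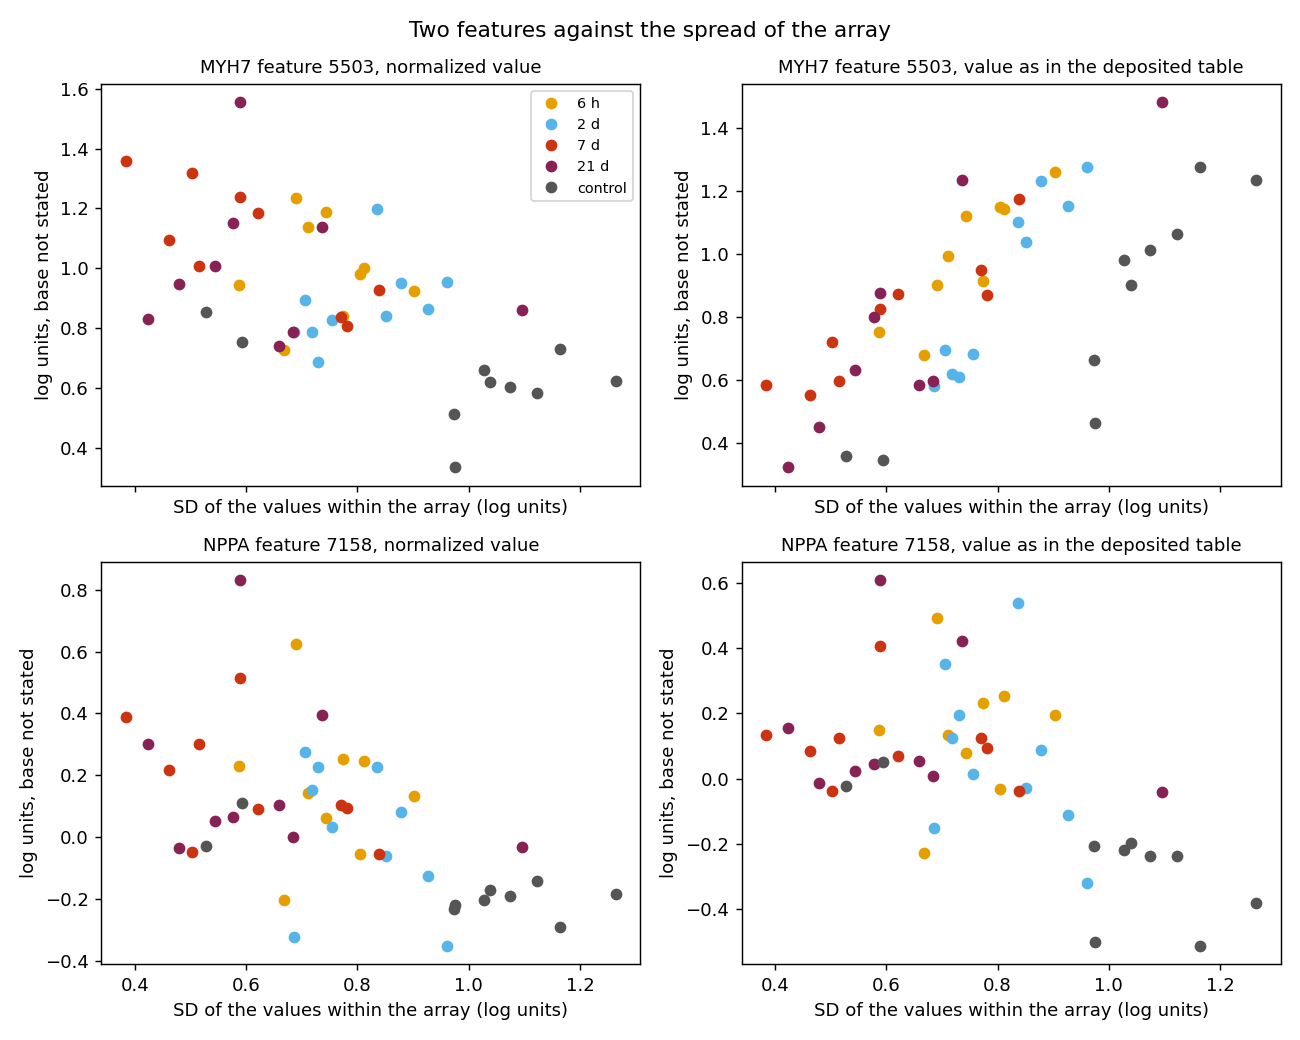
MYH7 feature 5503 (top) and NPPA (bottom) against the SD of all values within the array, as quantile-normalized values (left) and as deposited (right), in log units of unstated base for 47 arrays. On normalized values both are higher on arrays of low SD (r = -0.58 and -0.56), while the deposited value of feature 5503 runs the other way (r = 0.68) and that of NPPA does not (r = -0.54).

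Few other genes of slow fibres had a tested feature. Of 20 genes of the slow and cardiac sarcomere 5 were measured (MYH7, TPM3, TNNT1, ANKRD1 and MYL2), each judged by its feature of highest mean. At 6 h 1 of the 5 was called higher (MYH7) and none lower, beside 6 higher and 6 lower of all 121 genes. At 2 d none was called, nor any of the 121. At 7 d 1 was higher (MYH7), beside 9 higher and 16 lower of the 121, and at 21 d 1 was higher (MYH7) and 1 lower, beside 8 and 9. Counted by feature, 1 of the list's 9 was higher and 1 lower at 6 h and at 7 d, and 1 was higher and 2 lower at 21 d, since MYH7 feature 4799 was called lower each time. The gene called lower at 21 d was TPM3, the slow tropomyosin that lies along the thin filament, at 1.44 ± 0.28 at 21 d (n = 9) and 1.79 ± 0.19 in controls (n = 10), a difference of -0.35 (SE 0.099, adjusted p = 0.0135) seen in 8 of 9 pigs. The median difference of the list's 9 features was -0.10 at 6 h, -0.0021 after 2 d, -0.06 at 7 d and -0.09 at 21 d, against -0.02, -0.02, -0.01 and -0.00092 over all tested features. MYL2, the regulatory light chain that pairs with MYH7, differed by at most 0.09 in size in either of its 2 features (adjusted p of 0.58 or more). A further list, of 16 genes of the oxidative fibre programme, had 3 measured. Of these, 1 was called lower at 7 d, beside 9 higher and 16 lower of the 121 genes, and none at the other ages.

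Genes that work with ATP2A2 and NPPA were sparse as well. Of 25 calcium handling genes, SLN, a small inhibitor of the SERCA pumps, and RYR1, the release channel of skeletal muscle, were measured beside ATP2A2, and none was called. SLN differed by -0.06 to -0.02 over the ages and RYR1 by -0.18 to 0.08. NPPA was the only 1 of 12 natriuretic peptide pathway genes with a tested feature, so neither its receptors nor its processing enzymes could be followed. Of 9 measured fast sarcomere genes none was called by its feature of highest mean, while some of their 45 features were. At 6 h 2 were higher and 3 lower, where 6.92% and 4.87% of all features were. At 7 d 2 were higher and 11 lower (10.7% and 14.6% of all), and at 21 d 2 and 4 (6.50% and 8.23% of all). As with MYH7, features of 1 gene went in opposite directions: MYLPF, the fast regulatory light chain, had 1 feature at 1.15 and another at -0.58 at 7 d, both called.

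Genes of other cells in a lesion were nearly unmeasured. The lists of immune cells (1 of 13 genes, CD74), of fibroblasts and matrix (1 of 9, FN1) and of endothelium, fat and blood (1 of 8, PECAM1) held 1 tested feature each, and none was called. CD74 differed from control by -0.16 at 6 h, -0.06 after 2 d, -0.04 at 7 d and -0.06 at 21 d, FN1 by -0.19, -0.01, -0.18 and -0.23, and PECAM1 by -0.09, -0.07, -0.06 and -0.07. The part of other cells in the differences of the 3 genes was not tested.

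The features of other genes most like each member were found by Pearson correlation over the 47 arrays. For MYH7 feature 5503 they were NPPA (0.68), MYH1, a fast myosin heavy chain (0.60), and a feature of MYLPF (0.60). For NPPA they were RPS3, a ribosomal protein (0.69), MYH7 feature 5503 (0.68) and MYH1 (0.66). The RPS3 feature, number 7133, and the MYH1 feature, number 7517, are both among the grid neighbours of NPPA. For MYH7 feature 4799 they were ENO3, the muscle enolase (0.69), RPL11 (0.60) and EIF4A3 (0.58). ATP2A2 was most like CKM, the muscle creatine kinase (0.78), ATP5G1, a subunit of ATP synthase (0.75), and APP (0.63), and the ATP5G1 feature, number 5802, lies at the same place of the grid 1 repeat further along the list. MYH7 feature 4610 was most like RPL12 (0.67), MYLPF (0.63) and DES (0.62), and feature 6486 like another CKM feature (0.56), ACTB (0.51) and HTT (0.50).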

How the data were processed

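RNA of 48 muscle samples was measured on nylon arrays. The deposited table gives log values of unstated base in 90 columns, a unit other than counts or intensities; per the labels, spots were read from imaging plates at 25 micrometres. How the authors corrected background and centred values is in none of the sources used here. Both columns of a sample were averaged (41 of 42 pairs are identical), and 1 column of the 6 h lesion of pig J that copies the control of pig I was dropped. The 6 h array of pig F was left out, because it correlated with the mean of the others below 0.5. Values were quantile-normalized and fitted by limma 3.58.1 in R 4.3.3 (lmFit, eBayes), with group and animal as terms over 5 groups. Tests were two-sided, with Benjamini-Hochberg adjustment over 1908 features in each comparison. The animal is a block because the design took all groups from the same pigs; deviations from group means correlated at a median of -0.0236 within pigs and -0.00355 between pigs. Arrays carry no counts, so their number limits the precision. The fit was also run on simulated data with known changes. These data held neither the grid pattern nor group differences in array spread, so they cannot show how the fit handles either.

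All member features are named. The 3 most correlated features of other genes and the called members of 4 gene lists (slow and cardiac sarcomere, fast sarcomere, calcium handling, natriuretic peptide pathway) are named by rule, with 1 feature per gene; MYL2, SLN, RYR1, MYLPF features and the markers of other cells were named after their values were seen. Members and lists were chosen with earlier results of these data known. Symbols come from the array's platform annotation. Other settings were deposited values, median centring, array SD, local and grid trends, array weights, other blocks, the pig F array, and leaving out arrays or 1 pig at a time. Figures were drawn with matplotlib 3.10.9.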

Additional observations from a re-analysis of the deposited data

Results flagged for a closer look

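In 3 of 30 groups of samples looked at (6 features in 5 groups), 1 sample stood far from the rest of its group, where chance flags about 1 in 20. The 2 d lesion of pig D was at 1.199 for MYH7 feature 5503, with the other 2 d lesions between 0.687 and 0.954, on an array with an SD of 0.836. The 21 d lesion of pig J was at 1.555 for MYH7 feature 5503, with the others between 0.740 and 1.15. The same lesion was at 0.8304 for NPPA, with the others between -0.036 and 0.396, on an array with an SD of 0.589.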

How the results depend on the processing

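Of the 9 calls against control, all 9 were kept without the replicate block (MYH7 feature 5503 at 7 d at 0.46) and with the animal as a random replicate block. Counts of called features (of 6) were 0 at 6 h and at 21 d with array SD in the model (8.49% and 5.82% of all features), and 0 over all ages by the F test (13.5%). At 6 h the count was 1 with the local trend along the list subtracted (9.80%). It was also 1 with both samples of the copied column left out (6 h of pig J, control of pig I, 7.76%). Without 1 pig it was 1 to 3, where 151 to 257 of all features were called. At 2 d it was 1 on table values (1.47% of all features called), 2 on median-centred values (2.99%) and 2 with array weights (2.78%). At 21 d it was 1 to 3 without 1 pig, where 169 to 325 of all features were called. For 2 d against 6 h it was 2 with array weights (16.5%) and 1 with the grid trend subtracted (8.39%). For 7 d against 2 d it was 1 with array weights (24.5%) and 2 with the grid trend subtracted (20.3%). It was also 2 without the 21 d lesion of pig J and the 2 d lesion of pig D (17.0%). Without 1 pig it was 0 to 1, where 218 to 312 of all features were called. Signs turned for MYH7 feature 5503 on table values (-0.0065 at 7 d, -0.071 at 21 d) and on median-centred values (-0.047 at 21 d). ATP2A2 at 6 h turned to 0.059 with the array of pig F and 0.047 with that array moved into step, and ran from -0.15 to 0.019 without 1 pig. MYH7 feature 6486 turned with array SD (0.036 at 6 h, 0.10 at 7 d, 0.093 at 21 d) and the local trend (0.0084 at 6 h, 0.071 at 7 d). MYH7 feature 4610 turned at 2 d (table -0.032, median-centred -0.016, array SD -0.12, and -0.032 to 0.091 without 1 pig) and at 7 d (table -0.16, median-centred -0.14, array SD -0.26, local trend -0.019, array weights -0.086, and -0.10 to 0.14 without 1 pig). Over all features, calls higher and lower were 103 and 393 at 6 h on table values, against 132 and 93 on normalized values, 249 and 495 at 7 d against 205 and 279, and 178 and 530 at 21 d against 124 and 157. With array weights 615 were called at 6 h, 53 at 2 d and 384 at 21 d, against 225, 14 and 281. With array SD 265 were called at 7 d and 111 at 21 d, against 484 and 281. The causes were not tested.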
